A study of Mus musculus with 4 samples.

Results

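The genes described here encode the MHC class II antigen presentation machinery and its costimulatory partners in primary liver sinusoidal endothelial cells (LSECs). The 10 members were taken by gene symbol from a list of the pathway: *Cd74*, *H2-Aa*, *H2-Ab1*, *H2-Eb1*, *H2-DMa*, *H2-DMb1*, *Ciita*, *Cd80*, *Cd86* and *Cd40*. All 10 were among the 18373 genes with deposited values, and 7 of them passed the filter on low counts and were tested with 13628 genes in all. *H2-Eb1*, *H2-DMb1* and *Ciita* did not pass it.

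RNA-seq was carried out on 4 libraries of primary LSECs from 8-week-old balb/c mice. All cells were cultured for 24 h after isolation by liver perfusion, a density gradient and CD146 beads, then transfected for 48 h and collected at day 3. In 2 libraries the siRNA was a negative control (NC) and in the other 2 it was si*Airn*, directed at the long noncoding RNA *Airn*. No genetic change or disease model was part of either group. The methods speak of 2 separate si*Airn* sequences, while the titles of both libraries carry the number 1, so which sequence each library received is not settled. The libraries are numbered as biological replicates 1 and 2, but the labels do not say whether they came from separate mice or cultures, so p-values measure the spread between these libraries. *Airn* (104103) itself was counted 7 and 3 times in the NC libraries, against 11 and 9 times in those labelled si*Airn*, a ratio of summed counts of 1.97 (95% exact binomial interval 0.88 to 4.71, counting error only). These few counts were not lower in si*Airn*, but the interval includes 1, so they do not settle whether *Airn* was lowered. The paper states that 2 of its si*Airn* sequences knocked *Airn* down efficiently. Each direction below compares libraries as they were labelled.

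Library totals were between 17308382 and 18371959 counts. Testing was by edgeR's quasi-likelihood method, and a change was called at a Benjamini-Hochberg adjusted p under 0.05 over all genes tested. In this test 1127 genes (8.27%) were higher and 1167 (8.56%) lower in si*Airn*. Without NC replicate 2 no gene passed this threshold, and without NC replicate 1 only 7 higher and 28 lower genes did. LSEC markers such as *Fcgr2b* and *Oit3* were abundant, with the summed level of 10 LSEC genes between 826 and 1302 FPKM (read counts scaled to transcript length and library size). Of these 10, 8 fell in si*Airn*, though most of these calls were lost without NC replicate 1 and all without NC replicate 2. By contrast, 3 of 8 stellate cell and 2 of 6 hepatocyte markers rose, with median log2 fold changes of 0.46 and 0.60. Leaving out si*Airn* replicate 1 turned these counts of 3 and 2 into 8 and 3, leaving out replicate 2 of that group gave 2 and 1, and neither list kept a call when an NC library was left out. In bulk RNA, fewer cells of a type and less RNA per cell cannot be told apart.

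MHC class II molecules are pairs of an alpha and a beta chain that display peptides from endocytosed proteins to CD4+ T cells. The chains assemble with the invariant chain CD74, which is trimmed by lysosomal proteases, and the H2-DM heterodimer then helps to load peptide. CIITA is the coactivator that switches class II genes on, and it is itself induced by interferon gamma. T cells also read costimulation: CD80 and CD86 bind CD28 and CTLA-4, and CD40 receives CD40 ligand from activated T cells. LSECs are scavenger endothelial cells known to take up antigen and to present it to T cells, with low costimulation and mostly tolerant outcomes.

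CIITA does not bind DNA itself but is recruited by factors assembled on conserved promoter elements, the X box bound by RFX and the Y box bound by NF-Y. RefSeq promoter windows (GRCm38.p6, 250 bases before to 50 after each start) were at hand for 5 of the 10 members in 6 windows. The 150 bases before the start are shown for *H2-Aa*, *H2-Eb1* and *H2-DMb1*, because these windows hold matches to the Y box, 2 of them also to the X box, and these genes span the levels measured, from several FPKM to 0. Capitals mark matches to the X box and the Y box.
H2-Aa, chr17:34287824-34287973, minus strand: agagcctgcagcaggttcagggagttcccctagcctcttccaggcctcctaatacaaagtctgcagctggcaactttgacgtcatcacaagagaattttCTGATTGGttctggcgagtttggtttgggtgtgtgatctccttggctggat
H2-Eb1, chr17:34305717-34305866, plus strand: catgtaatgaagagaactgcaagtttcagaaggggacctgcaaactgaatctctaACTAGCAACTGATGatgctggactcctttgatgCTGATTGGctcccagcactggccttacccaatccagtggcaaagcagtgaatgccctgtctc
H2-DMb1, chr17:34153041-34153190, plus strand: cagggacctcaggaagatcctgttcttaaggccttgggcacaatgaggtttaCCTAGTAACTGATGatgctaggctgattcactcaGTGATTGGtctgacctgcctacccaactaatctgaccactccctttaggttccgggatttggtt

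The Y box was searched as CTGATTGG with at most 1 mismatch and the X box as CCNAGNNAC followed at once by NGATG with at most 2 mismatches, both on either strand. *H2-Aa* held an exact Y box at -51, counted in bases from the start, and no match to the X box in these letters. *H2-Eb1* held an X box with 1 mismatch at -95 and an exact Y box at -62. *H2-DMb1* held an exact X box at -98 and a Y box with 1 mismatch at -64. Between the X and Y boxes lay 19 bases in *H2-Eb1* and 20 in *H2-DMb1*. The ATTGG core of the Y box, which overlaps the Y box letters, was in 37.4% of all 32817 windows, a Y box match in 24.6% and an X box match in 22.9%. An X box followed by a Y box on the same strand at a distance of 15 to 25 bases, a range set after these windows were seen, was in 55 windows (0.168%) of 46 genes. Of these genes, 6 were H2 genes: *H2-DMb1*, *H2-DMb2*, *H2-Eb1*, *H2-Eb2*, *H2-M3* and *H2-Ob*. Of the 2 *H2-DMa* windows, the first held neither element and the second a Y box with 1 mismatch at -248 and no X box. Neither element was found in the *Cd80* window. A match describes letters only, and binding was not measured.

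Per transcript length, *Cd40* was the highest member, with a mean of 11.5 FPKM over the 4 libraries, and 65.1% of all genes in the table lay below it. *Cd74* followed at 8.20 FPKM, and the library values of these 2 genes overlapped. *H2-Aa* at 3.32 FPKM lay below *Cd74* in every library, and *H2-Ab1* at 2.45 FPKM overlapped with *H2-Aa*. *Cd74*, *H2-Aa* and *H2-Ab1* were therefore in the middle of the range of genes, with 44.0% of genes below *H2-Ab1* and 59.2% below *Cd74*. The remaining members were low: *H2-DMa* at 0.63 FPKM was apart from *H2-Ab1*, *Cd80* at 0.43 and *Cd86* at 0.348 overlapped with their neighbours, and *H2-DMb1* was at 0.135 and *Ciita* at 0.035 FPKM. *H2-Eb1* was at 0 in every library. For scale, the MHC class I chain *H2-K1* had between 793 and 1272 FPKM in the same libraries.

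**Figure D1:**
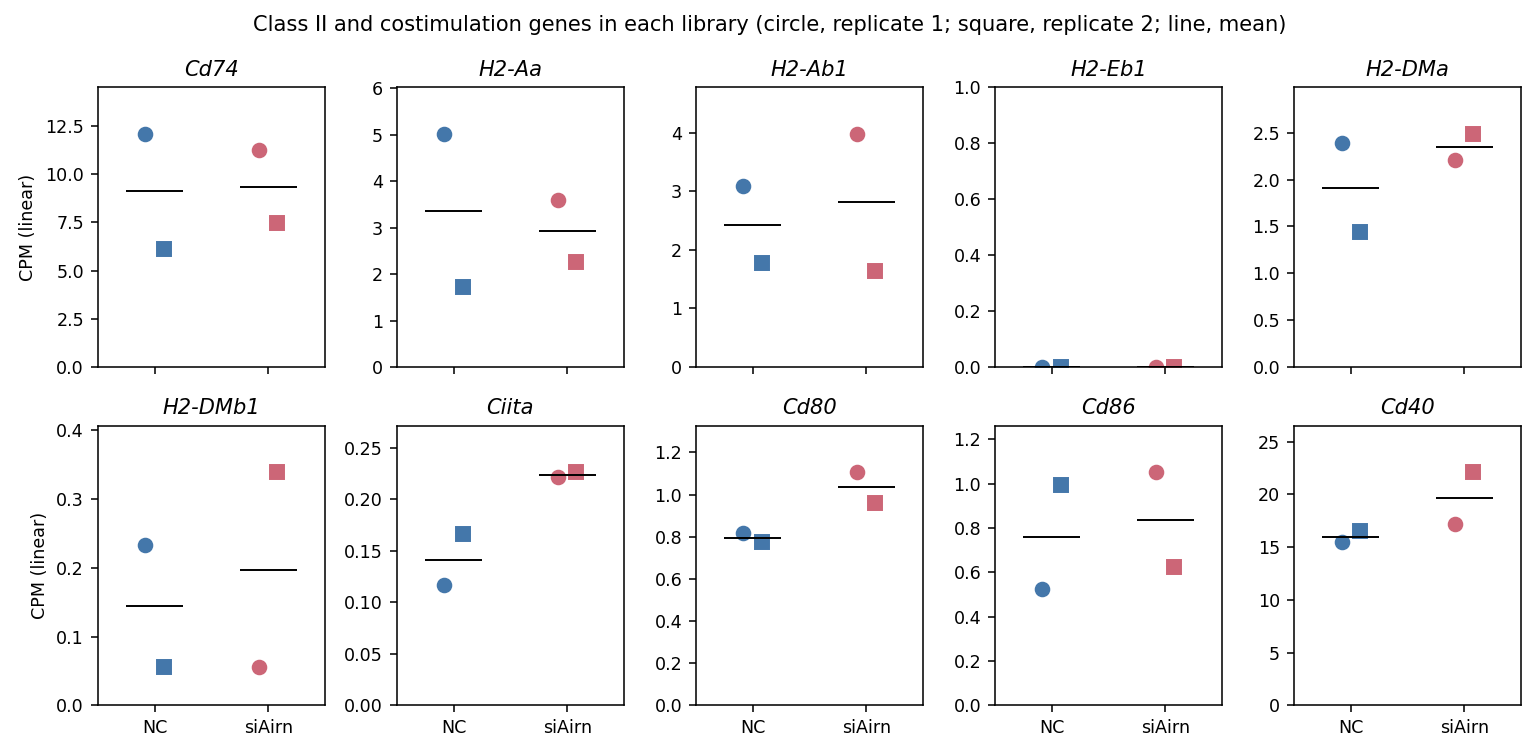
Normalised read counts (CPM, counts scaled to a common library size by TMM) of the 10 members in each of the 4 libraries, 1 panel per gene, with each point a library and the line the mean of a group of 2. *Cd74*, *H2-Aa* and *H2-Ab1* are high in replicate 1 and low in replicate 2 of both groups, while *Cd40* lies between 15.5 and 22.1 CPM and *H2-Eb1* at 0.

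*Cd74* (16149), the invariant chain, had 12.1 and 6.14 CPM in the NC libraries and 11.2 and 7.46 CPM in the libraries labelled si*Airn*. The group means of 9.11 ± 4.20 and 9.35 ± 2.66 CPM (SD, n = 2 each) were nearly equal, and the libraries of the groups overlapped. The log2 fold change of si*Airn* against NC was 0.04 (SE 0.33, 95% interval -0.73 to 0.82, edgeR adjusted p = 0.943). The interval is wide, since replicate 1 was higher than replicate 2 in both groups, by 0.98 on the log2 scale for NC and by 0.59 for si*Airn*.

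*H2-Aa* (14960), the alpha chain of the A molecule, had 5.02 and 1.71 CPM in NC and 3.60 and 2.26 CPM in si*Airn*. Both si*Airn* libraries lay between the NC libraries. The log2 fold change was -0.19 (SE 0.49, 95% interval -1.36 to 0.97, edgeR adjusted p = 0.816). *H2-Ab1* (14961), the beta chain of the same molecule, had 3.09 and 1.77 CPM in NC and 3.98 and 1.64 CPM in si*Airn*. Here the si*Airn* libraries lay on either side of both NC libraries, with a log2 fold change of 0.22 (SE 0.47, 95% interval -0.89 to 1.32, edgeR adjusted p = 0.781). The direction of these 3 genes rested on single libraries: without NC replicate 1 the log2 fold changes were 0.61 for *Cd74*, 0.77 for *H2-Aa* and 0.67 for *H2-Ab1*, and without NC replicate 2 they were -0.37, -0.78 and -0.14. Neither setting gave a call for any of them.

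*H2-Eb1* (14969), the beta chain of the E molecule, had no count in any library, which allows up to 3 counts or between 0.166 and 0.175 CPM in each. Its alpha partner is carried in the table as *H2-Ea-ps* (100504404), a pseudogene in the C57BL/6J reference and a working gene in the H2-d haplotype of balb/c mice. *H2-Ea-ps* had 14 and 7 counts in NC, against 20 and 10 in si*Airn*, with a log2 fold change of 0.48 (SE 0.56, edgeR adjusted p = 0.587). The class II chains are among the most polymorphic genes of the mouse, and how far the difference between the balb/c and reference haplotypes lowered the counts of any of them was not tested.

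*Cd74*, *H2-Aa*, *H2-Ab1* and *H2-Ea-ps* shared a pattern over libraries that the groups do not describe, and *H2-DMa* did not share it. As a percent of each gene's mean CPM over the 4 libraries, in the order NC 1, NC 2, si*Airn* 1 and si*Airn* 2, *Cd74* was at 131%, 66.5%, 122% and 80.9%. *H2-Aa* was at 159%, 54.4%, 114% and 71.8%, and *H2-Ab1* at 118%, 67.5%, 152% and 62.5%. *H2-Ea-ps*, with its few counts, was at 114%, 53.8%, 154% and 78.6%. In each of these 4 genes replicate 1 was above replicate 2 within both groups. The log2 ratio of replicate 1 to 2 was 0.98, 1.55, 0.81 and 1.08 in NC and 0.59, 0.67, 1.28 and 0.97 in si*Airn*, in the order *Cd74*, *H2-Aa*, *H2-Ab1* and *H2-Ea-ps*. Over all genes tested, the 5th and 95th percentiles of this ratio were -0.54 and 0.41 in NC and -0.55 and 0.44 in si*Airn*. The biological coefficient of variation fitted by edgeR was 0.226 for *Cd74*, 0.336 for *H2-Aa* and 0.313 for *H2-Ab1*, against a common value of 0.0754 over all genes. Neither the percentiles nor the common value was matched for counts. They do not show how unusual the class II genes were among genes of similar counts.

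**Figure D2:**
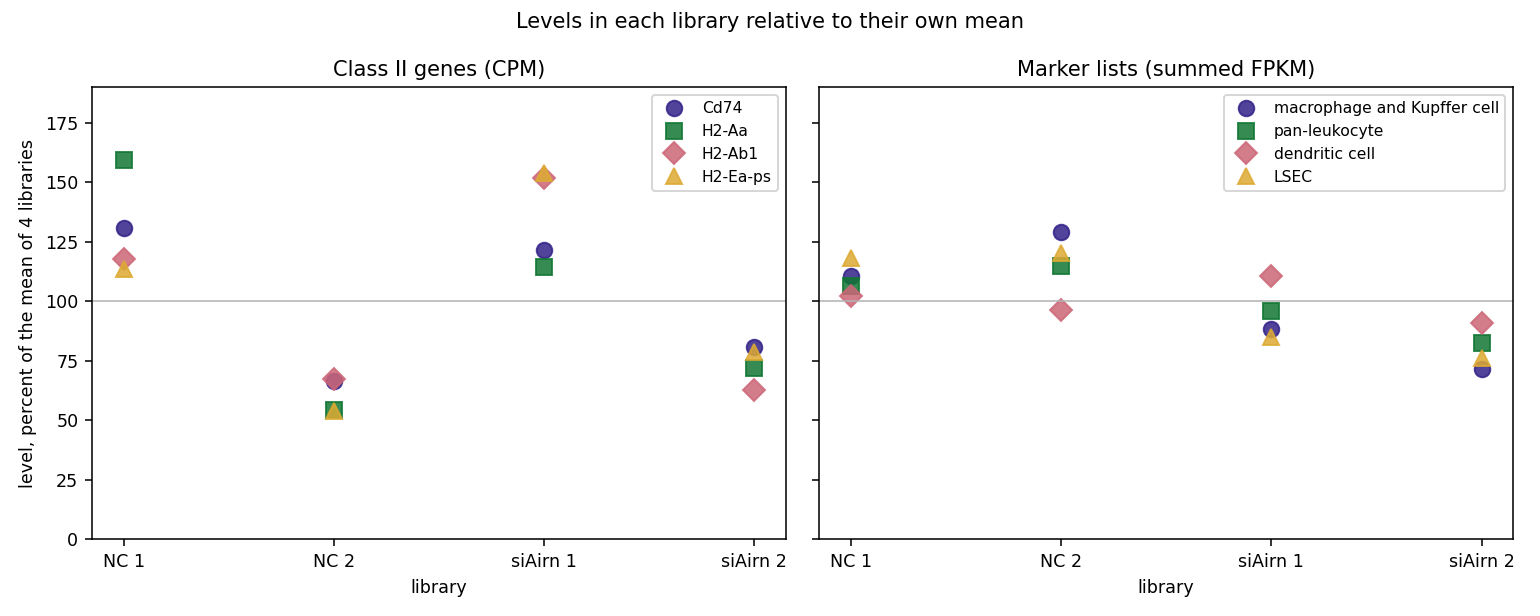
Levels in each library as a percent of the mean over the 4 libraries, for 4 class II genes in CPM (left) and for the summed FPKM of 4 marker lists (right). The class II genes are above 100% in both libraries numbered 1 and below it in both numbered 2, while the macrophage and LSEC lists are above 100% in both NC libraries.

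Professional antigen-presenting cells hold far more class II RNA than endothelial cells, so markers of such cells were set beside these genes. The summed level of 10 dendritic cell markers was 16.95 and 15.97 FPKM in NC and 18.4 and 15.1 FPKM in si*Airn*, or between 90.8% and 111% of its mean. Of its defining genes, *Flt3* had between 1 and 6 counts, *Xcr1* and *Cd209a* had at most 1 count and *Itgax* had between 12 and 23. *Ccr7*, a homing receptor of migrating dendritic cells and of T cells, had 27 and 13 counts in NC, against 38 and 22 in si*Airn*. Its log2 ratios of replicate 1 to 2 were 1.13 and 0.76, of the size seen in the class II genes. *Clec10a*, with 5 and 1 counts in NC, against 1 and 0 in si*Airn*, was also higher in replicate 1 of both groups, at counts too low to compare. *Flt3*, with log2 ratios of 2.40 and -1.62, had counts as low. *Clec9a* had log2 ratios of -0.04 and 0.57. *Itgax* (0.01 and 0.91), *Batf3* (0.08 and 0.22) and *Siglech* (0.08 and 1.38) were above 0 in both groups, but close to 0 in NC. *Siglech* had 11 and 11 counts in NC, against 8 and 3 in si*Airn*. The 7 B cell markers in the table summed to between 1.84 and 2.94 FPKM, with between 18 and 27 counts of *Cd79a*. *Cd79b*, the partner of *Cd79a* in the B cell receptor, had 6 and 2 counts in NC, against 20 and 16 in si*Airn* (log2 fold change 2.11, edgeR adjusted p = 0.0535). The pan-leukocyte list summed to 66.5 and 71.9 FPKM in NC and to 60.0 and 51.5 FPKM in si*Airn*. All 8 of its genes had log2 fold changes below 0, with a median of -0.54, and 2 fell, *Laptm5* and *Itgb2*. The count of 2 was 0 without either NC library, without si*Airn* replicate 2 or after correction for GC content and length, and 4 without si*Airn* replicate 1. *Ptprc* had 68, 72, 63 and 57 counts. The macrophage and Kupffer cell list summed to 305 and 356 FPKM in NC and to 244 and 198 FPKM in si*Airn*. The B cell, macrophage, pan-leukocyte and LSEC sums were not higher in replicate 1 of both groups, and the dendritic cell, T and NK cell and pan-endothelial sums were. The T and NK cell sum was 2.13 and 1.94 FPKM in NC and 3.51 and 2.95 FPKM in si*Airn*. The dendritic cell sum was made up mostly of *Zbtb46*, with 8.33 to 10.2 FPKM and log2 ratios of 0.10 and 0.23. The sum thus mostly follows this gene, and whether *Zbtb46* came from dendritic cells or from other cells was not tested. Hepatocyte markers stepped the opposite way, at 267 and 346 FPKM in NC and 398 and 513 FPKM in si*Airn*. The part of any of these cells in the class II levels was not tested.

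The peptide editors were at the edge of what these libraries show. *H2-DMa* (14998), the alpha chain of H2-DM, had 2.39 and 1.44 CPM in NC and 2.21 and 2.49 CPM in si*Airn*. The groups overlapped, and the log2 fold change was 0.30 (SE 0.33, 95% interval -0.49 to 1.09, edgeR adjusted p = 0.566). Unlike the class II chains, *H2-DMa* was higher in replicate 1 only in NC, with log2 ratios of 0.74 and -0.17. Exons of *H2-DMa* lie under exons of *Brd2* on the opposite strand over 10.4% of their bases, and whether counting used strand is not stated. *H2-DMb1* (14999), the beta chain, had estimated counts of 3.76 and 1.06 in NC, against 0.69 and 5.51 in si*Airn*, at a ratio of 1.18 (exact binomial interval 0.301 to 4.90, counting error only). These values are uncertain, since 27.2% of 50-base windows of *H2-DMb1* are also found in its near copy *H2-DMb2*, which was at 0 in all libraries. The H2-DM antagonist chain genes *H2-Oa* and *H2-Ob* had at most 1 and 3 counts per library.

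*Ciita* (12265), the class II coactivator, had 2 and 3 counts in NC, against 4 in each si*Airn* library. The ratio of the sums was 1.58 with an exact binomial interval of 0.455 to 6.12 (counting error only). A difference in either direction inside this interval was not detectable at this depth.

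Of the costimulatory genes, only the receptor was measured at depth. *Cd40* (21939), through which antigen-presenting cells receive T cell help, had 15.5 and 16.5 CPM in NC and 17.2 and 22.1 CPM in si*Airn*. Both si*Airn* libraries were above both NC libraries, at means of 16.0 ± 0.751 and 19.7 ± 3.46 CPM (SD, n = 2 each). With replicate number as a block, edgeR gave a log2 fold change of 0.29 and a call (adjusted p = 0.0483). The block with correction for GC content and length gave 0.31 and a call (edgeR adjusted p = 0.0246). In edgeR's main test, without a block, *Cd40* was not called. There the log2 fold change was 0.30 (SE 0.14, 95% interval -0.03 to 0.63), with an unadjusted p of 0.0721 and an adjusted p of 0.185. The value rested on si*Airn* replicate 2, the higher of that group: without it the log2 fold change was 0.10, and without si*Airn* replicate 1 it was 0.47 and passed the threshold (edgeR adjusted p = 0.0392).

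*Cd80* (12519), a ligand of CD28 and CTLA-4, had 14 and 14 counts in NC and 20 and 17 counts in si*Airn*, or 0.817 and 0.774 CPM against 1.11 and 0.961 CPM. The groups did not overlap, but the log2 fold change of 0.38 had an SE of 0.39 (95% interval -0.54 to 1.29, edgeR adjusted p = 0.531). *Cd86* (12524), the other ligand, had 9 and 18 counts in NC and 19 and 11 counts in si*Airn*. Each group held a high and a low library, and the log2 fold change was 0.13 (SE 0.51, 95% interval -1.07 to 1.33, edgeR adjusted p = 0.880). At these counts a doubling of *Cd80* or *Cd86* lies inside the interval.

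Across the members, no gene was called higher or lower by edgeR's test, where 8.27% and 8.56% of all genes tested were. None had an unadjusted p under 0.05 in this test, and none was called by DESeq2, which gave 3 of them an adjusted p, or by limma on log2 FPKM values, which tested 4 and gave *Cd40* an unadjusted p under 0.05. Under the study's own threshold (a fold above 1.4 with unadjusted p below 0.05), no member passed either, where 5.25% of all genes were higher and 4.72% lower. With replicate number as a block, edgeR called 1 member, *Cd40*, higher, where 2405 of all genes were higher and 2436 lower. Of the 7 members tested, 6 had a log2 fold change above 0 and 1 below it, with a median of 0.22 against 0.00 over all genes. This median was 0.61 without NC replicate 1, -0.03 without NC replicate 2 and -0.28 without si*Airn* replicate 1. The groups did not overlap in 2 of the 7 members, *Cd80* and *Cd40*, where 62.7% of all genes tested did not overlap.

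**Figure D3:**
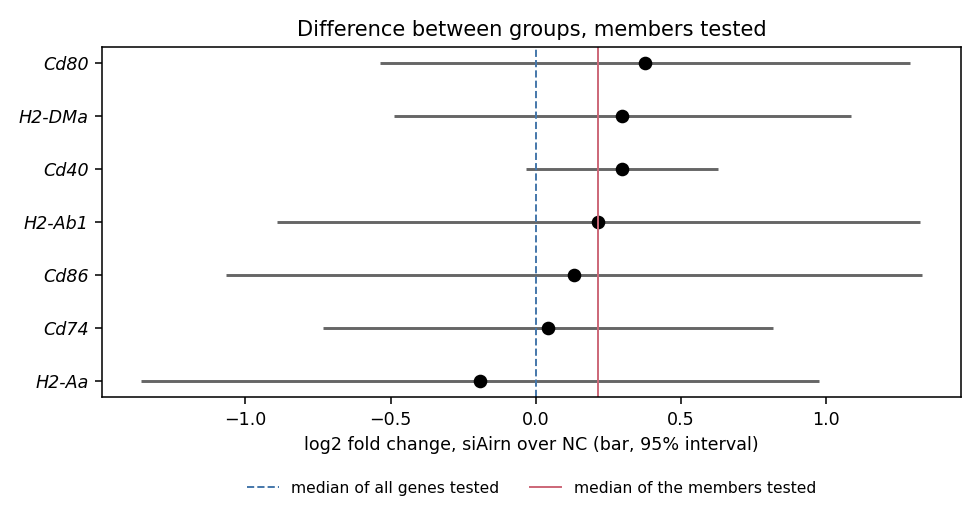
Log2 fold change of si*Airn* against NC for the 7 members tested, with 95% intervals from edgeR's quasi-likelihood test, and the medians of the members and of all genes tested. Every interval includes 0, and that of *Cd40* is the narrowest, from -0.03 to 0.63.

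The proteases that trim the invariant chain and degrade antigen were measured at far higher levels than the class II chains, and several of them fell in si*Airn*. Of 12 genes for lysosomal antigen processing, 7 fell and none rose in edgeR's main test, with a median log2 fold change of -0.32. Of all genes tested, 8.56% fell and 8.27% rose. This and the other lists were chosen with earlier results of these data known, so these shares are given for scale only. That none rose did not hold in every setting. Limma on log2 FPKM values called 1 gene of the list higher and 6 lower. The replicate block with correction for GC content and length called 2 higher and 7 lower. *Ctss*, the cathepsin that makes the last cut of the invariant chain in antigen-presenting cells, had 36.2 and 31.5 FPKM in NC and 21.6 and 14.3 FPKM in si*Airn* (log2 fold change -0.95, SE 0.18, edgeR adjusted p = 0.0199). *Ctsb*, an abundant lysosomal cathepsin, had 1322 and 1452 FPKM in NC against 713 and 706 in si*Airn* (log2 fold change -0.94, SE 0.07, edgeR adjusted p = 0.00284). In both genes the groups were apart.

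*Ctsl*, the related protease of thymic epithelium, fell by 0.35 on the log2 scale (SE 0.06), from 1015 and 1023 FPKM to 835 and 818. The asparagine endopeptidase gene *Lgmn* fell by 0.50, from 166 and 188 FPKM to 125 and 132. *Ctsd* fell by 0.62, and the saposin precursor *Psap* and the lysosomal membrane gene *Lamp1* fell by 0.61 and 0.29. *Ifi30*, the thiol reductase of the class II compartment, was not called, with 58.5 and 64.9 FPKM in NC and 61.1 and 70.5 in si*Airn* (log2 fold change 0.05, edgeR adjusted p = 0.770). *Sppl2a*, which removes the last membrane stub of the invariant chain, had a log2 fold change of 0.10 (edgeR adjusted p = 0.335). *Ctsh*, *Ctsz* and the cathepsin inhibitor *Cst3* were not called either. The count of 7 became 1 without NC replicate 1 and 0 without NC replicate 2. *Ctss* is also a macrophage gene, and the macrophage list moved the same way: 11 of its 17 tested genes fell, with a median of -0.78. Its defining genes *Adgre1* and *Clec4f* had log2 fold changes of -0.82 and -1.43 (edgeR adjusted p = 0.0435 and 0.0176), and the abundant *Lyz2* and *Cd68* fell by 0.57 and 0.70 on the log2 scale. The count of 11 was 0 without either NC library, 6 without si*Airn* replicate 2, 4 after correction for GC content and length and 7 by limma on FPKM. The LSEC and pan-endothelial lists also moved this way, with 8 of 10 and 6 of 8 genes lower and medians of -0.57 and -0.49. Most of these calls were lost without NC replicate 1 and all of them without NC replicate 2. After correction for GC content and length, 9 LSEC and 4 pan-endothelial genes were lower. The part of macrophages or of endothelial cells in the fall of the lysosomal genes was not tested.

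**Figure D4:**
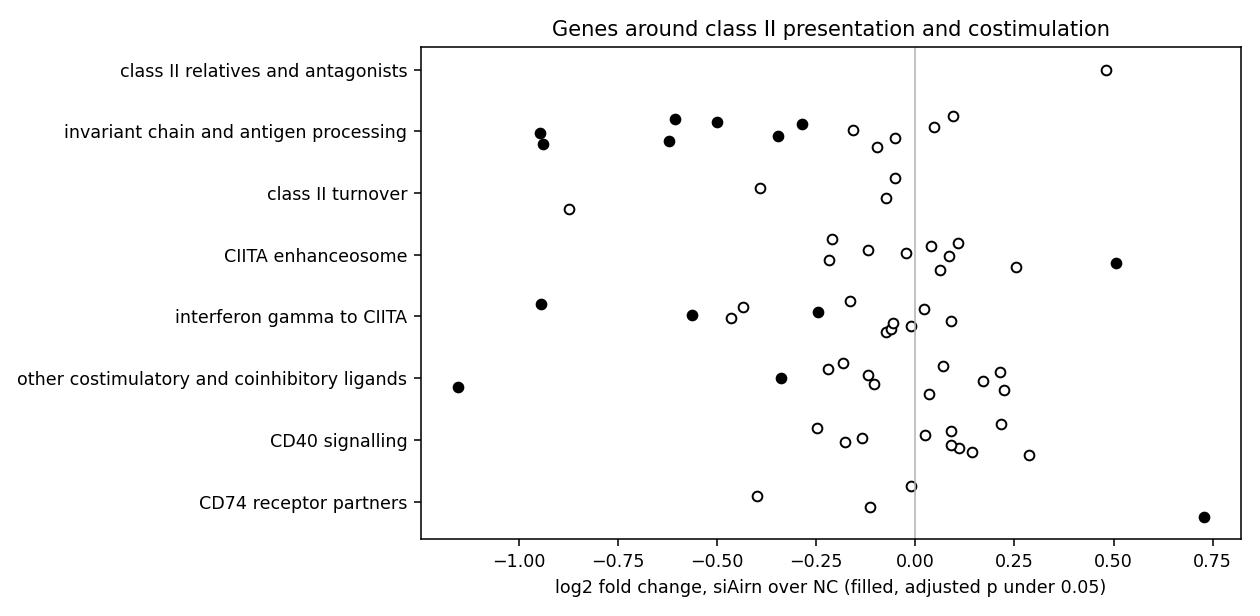
Log2 fold change of si*Airn* against NC for every tested gene of each pathway list, 1 row per list, with filled points for genes at an edgeR adjusted p under 0.05. The 7 filled points of the antigen processing list are all below 0, while the CD40 signalling list has none.

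Genes that remove class II from the surface were not called. The ubiquitin ligase *Marchf8* had between 16.1 and 18.5 FPKM (log2 fold change -0.05, edgeR adjusted p = 0.692). The interleukin-10 receptor chains *Il10ra* and *Il10rb*, through which class II is dampened, had log2 fold changes of -0.87 and -0.08 (edgeR adjusted p = 0.169 and 0.484). None of the 4 tested genes of this list had an unadjusted p under 0.05, and DESeq2 and limma, which each gave an adjusted p for 2 of them, called neither.

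The factors that recruit CIITA were all measured, in contrast to *Ciita* itself. Of 10 genes, 1 rose: *Ep300*, a histone acetyltransferase that works with CIITA, from 11.02 and 9.93 FPKM to 15.3 and 14.7 (log2 fold change 0.51, SE 0.07, edgeR adjusted p = 0.00932). This is 1 gene where 8.27% of all genes tested rose, and the call was lost without either NC library. The X box factors *Rfx5*, *Rfxap* and *Rfxank* had log2 fold changes of 0.04, -0.21 and 0.11 (edgeR adjusted p = 0.851, 0.198 and 0.451). The Y box factors *Nfya*, *Nfyb* and *Nfyc* had 0.09, -0.02 and -0.12, and none was called.

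On the route from interferon gamma to CIITA, 3 of 12 genes fell, where 8.56% of all genes tested did. *Spi1* and *Irf8*, transcription factors of myeloid and B cells, fell by 0.95 (SE 0.16) and by 0.56 (SE 0.09) on the log2 scale. In the same libraries 11 of 17 macrophage genes and 2 of 8 pan-leukocyte genes fell, and the part of these cells in the fall of *Spi1* and *Irf8* was not tested. *Spi1* had 6.80 and 7.16 FPKM in NC, against 4.0 and 3.39 in si*Airn*. The kinase *Jak1* fell by 0.25 (SE 0.06). The receptor chains *Ifngr1* and *Ifngr2* and the factor *Irf1*, through which interferon gamma reaches the *Ciita* promoter, had log2 fold changes of -0.06, -0.01 and -0.06, and none was called. The interferon target *Gbp2* was between 30.4 and 31.6 FPKM in all libraries. No call of this list remained without either NC library.

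Other ligands by which antigen-presenting cells steer T cells were present, and some were abundant. Of 11 tested, 2 fell, where 8.56% of all genes tested did. DESeq2 and the study's threshold each gave 1 lower gene of this list. *Lgals9*, a galectin ligand of TIM-3, fell by 0.34 (SE 0.06, edgeR adjusted p = 0.0154), from 517 and 489 FPKM to 413 and 406. *Cd48*, a leukocyte adhesion ligand, fell by 1.15 on the log2 scale (SE 0.29, edgeR adjusted p = 0.0383), from 2.51 and 2.94 FPKM to 1.29 and 1.25. Neither call remained without NC replicate 1, without NC replicate 2 or after correction for GC content and length. *Cd274*, which encodes PD-L1, had 11.2 and 10.4 FPKM in NC and 10.5 and 12.2 in si*Airn* (log2 fold change 0.04, edgeR adjusted p = 0.834). The TIGIT ligands *Pvr* and *Nectin2* had log2 fold changes of 0.21 and -0.12, neither called.

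Downstream of CD40, none of 10 genes was called by edgeR, DESeq2 or limma with all 4 libraries. That none was called did not hold in edgeR's fit without si*Airn* replicate 1. With all 4 libraries, 3 genes had an unadjusted p under 0.05 in edgeR: *Traf6*, *Relb* and *Birc2*. The noncanonical NF-kB genes *Nfkb2* and *Relb* had log2 fold changes of 0.09 and -0.18 (edgeR adjusted p = 0.357 and 0.129), and the inhibitor of apoptosis gene *Birc3* had 0.14 (adjusted p = 0.303). Of T cells, which supply CD40 ligand, the defining gene *Cd3e* had 23 counts in each NC library and 40 and 52 in si*Airn* (log2 fold change 0.98, edgeR adjusted p = 0.0719), and limma on log2 FPKM called it, the only gene of the T and NK cell list that limma tested. Other T cell genes had fewer counts: *Cd3d* had 1 count in each NC library and 0 in si*Airn*, *Cd3g* had 1 or 2 in every library, and *Cd4* had 12 and 10 counts in NC against 7 and 5. CD74 also serves at the cell surface as a receptor for MIF. *Mif* had between 608 and 688 FPKM (log2 fold change -0.01, edgeR adjusted p = 0.946). The signalling partner *Cd44* rose by 0.73 (SE 0.11, edgeR adjusted p = 0.0116), from 30.1 and 32.3 FPKM to 46.9 and 59.6, a call that was lost without either NC library.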

How the data were processed

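RNA-seq of 4 libraries of primary LSECs, 2 labelled NC and 2 labelled si*Airn*, was analysed, grouped by these labels. Reads were single-end on a BGIseq500 sequencer. The submitters' notes list BWA, Bowtie2 and RSEM without versions, and the human build hg19. The mouse build is not settled, and coordinates come only from RefSeq. The authors deposited raw estimated counts per gene, which need not be whole. They also deposited values of an unnamed unit, taken here to be FPKM since each follows the count divided by transcript length and library total. They served to compare levels between genes. The group means deposited were not used.

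Rounded counts entered edgeR 4.0.16 (R 4.3.3): TMM factors (0.985 to 1.02), filterByExpr, glmQLFit (robust false) and glmQLFTest with no covariate, adjusted over 13628 genes. SE and intervals follow from the F statistic. Values in CPM use the TMM library sizes. Shared 50-base windows and exon overlaps are from GENCODE M21 (the longest transcript). Alternatives were DESeq2 1.42.0, limma 3.58.1 on log2(FPKM + 1) and log2(FPKM + 0.1) at a mean FPKM of at least 1, upper-quartile normalization, no filter beyond 1 count, at least 10 counts in every library, the likelihood-ratio test, a replicate block, a correction for GC content and length, both together, the study's threshold, and leaving out each library.

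The members and lists were chosen with earlier results of these data known. The rule for named genes took all members, *Airn*, from each pathway list the 3 genes with the most FPKM and up to 3 called genes with the largest change, and from each marker list the 2 most abundant and the defining genes. Values are not given for every gene it covers, and further list genes were added for their roles with their values known. Some genes of the lists are not reported here by name. The scripts were tested on simulated data.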

Additional observations from a re-analysis of the deposited data

How the results depend on the processing

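The direction of *Cd40* and *Cd80* held in every alternative that tested them, with log2 fold changes of 0.10 to 0.47 (adjusted p 0.0246 to 0.693) and 0.27 to 0.47. The other members changed sign in at least 1 fit without a library, over -0.37 to 0.61 (*Cd74*), -0.78 to 0.77 (*H2-Aa*), -0.56 to 0.72 (*H2-Ab1*), -0.03 to 0.71 (*H2-DMa*) and -0.29 to 0.66 (*Cd86*), with no call. Leaving out each library gave 0 to 1 members called higher, the 1 being *Cd40*, and a median of the members between -0.28 and 0.61. It gave 0 to 1162 higher and 0 to 1170 lower genes in all. These fits leave 1 library in a group, assumed to vary like the others. With a replicate block, 2405 genes were higher and 2436 lower, and 1 member, *Cd40*, was called (log2 fold change 0.29, adjusted p = 0.0483). The labels do not say what libraries of the same replicate number share. Deviations of same-numbered libraries from their group means correlated at 0.270 over 13628 genes. Correction for GC content and length, known for 12948 genes, gave 383 higher and 624 lower, and with the replicate block 1930 and 2178, with 1 member, *Cd40*, called (0.31, adjusted p = 0.0246). The study's threshold gave 715 and 643. For the loss of calls without a library, fewer samples are part of the fit's construction, and otherwise the cause was not tested. *H2-Eb1*, *H2-DMb1* and *Ciita* had too few counts for a test, where 3 counts are 0.166 to 0.175 CPM.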
